A study of Mus musculus with 10 samples.

Results

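The replication-dependent histone genes encode the H1, H2A, H2B, H3 and H4 proteins that package newly copied DNA. They were taken as every gene of the deposited table whose symbol starts with Hist1h, Hist2h, Hist3h or Hist4h. This gave 65 of 22548 genes, of which 63 are typed as protein-coding and 2 as pseudogenes. Of the 65 genes, 53 had enough counts to be tested. Osteocytes, the cells embedded in mineralized bone, were isolated by repeated collagenase and EDTA digestion from femurs of male C57BL/6 mice. The labels give an age of 8 weeks without saying to which time point of the experiment it refers. In the MM group, 5 mice had received Vk12598 cells, a mouse myeloma line derived from the Vk*MYC model, by injection into the femur. In the No MM group, 5 control mice had received no myeloma cells, and the methods of the study give PBS as the control injection. Femurs with myeloma were examined at week 6, and each mouse gave 1 library. The libraries are called No MM 1 to 5 and MM 6 to 10 after the labels.

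Core histone proteins form the octamer around which DNA is wound, and H1 binds the linker DNA between nucleosomes. Most of these genes are transcribed during S phase, when chromatin is duplicated, and their mRNAs normally end in a short conserved stem-loop in place of a poly(A) tail. SLBP, the stem-loop-binding protein, takes part in processing, translation and decay of these mRNAs. Some histone genes also make polyadenylated transcripts that run past the stem-loop, which is known from differentiated, non-dividing cells. The libraries were made from total RNA, so a missing poly(A) tail should not by itself exclude a transcript.

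The stem-loop is shown because its position splits the gene models into the groups used for the levels. It was searched in GENCODE M21 transcripts (GRCm38) and was found for 43 of the 65 genes. Capitals mark the paired arms of the stem and lower case marks the loop. A match was also found in 22 of 21834 other protein-coding genes, 0.101%.

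Hist1h1c, Hist3h2a, Hist3h2ba and 20 others: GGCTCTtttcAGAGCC
Hist1h4d, Hist1h4f, Hist1h4h and 4 others: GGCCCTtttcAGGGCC
Hist1h2bb, Hist1h3c, Hist1h3e and 3 others: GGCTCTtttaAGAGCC
Hist1h4i and Hist2h4: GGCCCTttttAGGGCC
Hist1h4b and Hist1h4j: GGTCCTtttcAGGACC
Hist1h4a: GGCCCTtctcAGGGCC
Hist1h3g: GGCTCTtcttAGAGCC
Hist2h2ac: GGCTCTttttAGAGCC

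The first form was found in 23 genes, of which 3 are H1, 8 are H2A, 8 are H2B and 4 are H3 genes, and 0 are H4 genes. The second form was found in 7 genes, all of them H4 genes. Deposited gene models differed in where they end relative to this element. In 27 genes the model ended at the stem-loop. In 18 genes it ran at least 100 bases past it, was spliced, or was at least 1000 bases long with no stem-loop found. In the other 20 genes the model did not reach a stem-loop. These limits were set after the models had been seen.

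Of the 65 genes, 53 lie in the Hist1 cluster on chromosome 13, 8 in Hist2 on chromosome 3, 3 in Hist3 on chromosome 11 and 1, Hist4h4, on chromosome 6. By protein, as read from the symbol, 6 are H1, 17 are H2A, 18 are H2B, 11 are H3 and 13 are H4 genes. The build of the deposited coordinates was not given in the sources used here. By gene identifier, 63 genes were found in GENCODE M21 and 42 of these had the same coordinates there. The identifier of Hist2h2bb belongs there to Gm42743, typed as a long non-coding RNA, and Hist1h2al is typed as a processed pseudogene. Both were kept in their classes. Histone genes are near copies of each other, which affects how paired reads of 76 bases can be assigned. Of all 76-base windows of a histone gene, a median of 50% also occurred in the transcripts of another gene, and 32 of the 65 genes shared more than that. No shared window was found in 5 genes, among them Hist1h1a, Hist1h1b and Hist2h2be. Values of single genes with many shared windows are therefore uncertain.

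Libraries held 31099174 to 39466332 counts on genes. Immunoglobulin genes took 26.8% of the counts in No MM 3 and 29.3% in No MM 4, against 0.647 to 3.98% in the other 8 libraries, so the main counts, medians, shares and leading genes are given with and without these control libraries. The summed level of the plasma cell markers, led by Xbp1, was 4101 and 3934 CPM (the usual counts normalized to library size, with that size scaled by the TMM method) in No MM 3 and No MM 4 and 361.8 to 705 CPM elsewhere. All 9 tested plasma cell markers were lower in MM at an unadjusted p under 0.05 by edgeR, against 10.3% of all genes tested. After adjustment, 0 were called. No MM 1 stood apart in another way, with the nuclear RNAs Malat1 at 31.3 CPM and Neat1 at 25.9 CPM, against at least 143 and 218 CPM elsewhere. Those were the 2 genes found of a list of 12 RNAs that lack a usual poly(A) tail, so that list could not serve as a check on the library type. The osteocyte markers Sost and Dmp1 were present in every library, at 68.3 to 995 CPM and 112 to 885 CPM. Marker sums of other cells were also high, with 1144 to 64490 CPM for erythroid, 6061 to 27670 CPM for neutrophil and 3028 to 52010 CPM for osteoblast genes, led by Hbb-bs, S100a9 and Col1a2. At the same unadjusted threshold, 0 of 15 erythroid, 0 of 12 osteoblast and 0 of 12 osteocyte markers were called, and 1 of 10 neutrophil markers was higher in MM. Over all genes tested, 3.81% were higher and 10.3% lower, so such short lists would hold few calls in any case.

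Histone genes took a small part of these libraries. Their counts summed to 3816 in No MM 3 and to 9053 in MM 9, which are 0.00967% and 0.0285% of the counts of these libraries and the lowest and highest share of the 10. In CPM, the sum was 257 in No MM 1, 236 in No MM 2, 123 in No MM 3, 179 in No MM 4 and 156 in No MM 5. In the MM libraries it was 145 in MM 6, 162 in MM 7, 159 in MM 8, 250 in MM 9 and 234 in MM 10. Both groups held high and low libraries, and the group ranges overlapped over most of their length. The No MM mean was 190.3 ± 55.5 CPM (SD, n = 5). The MM mean was 189.9 ± 48.3 CPM (SD, n = 5), a ratio of 0.998. As a share of all counts without this scaling, the ratio was 1.25, and with the immunoglobulin genes left out of the total it was 1.13. Without No MM 3 and No MM 4 the unscaled ratio was 1.02. In CPM both libraries, at 123 and 179, lay below the No MM mean. Leaving them out therefore raises that mean and takes the scaled ratio below 0.998.

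A few genes carried this sum. Hist1h1c, which encodes a linker histone, held 34.8% of all histone counts, the core histone gene Hist1h2bc 16.3%, Hist1h4i 8.31% and Hist2h2be 7.63%. Of the 65 genes, 52 had fewer than 100 counts in every library and 5 exceeded 500 counts in at least 1 library. A count in every library was found for 59 genes. The 4 leading genes together made up 61.8 ± 8.55% of histone counts in No MM libraries and 71.0 ± 5.23% in MM libraries (SD, n = 5 each). The No MM share was 66.6 ± 4.95% (SD, n = 3) without No MM 3 and No MM 4.

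**Figure D1:**
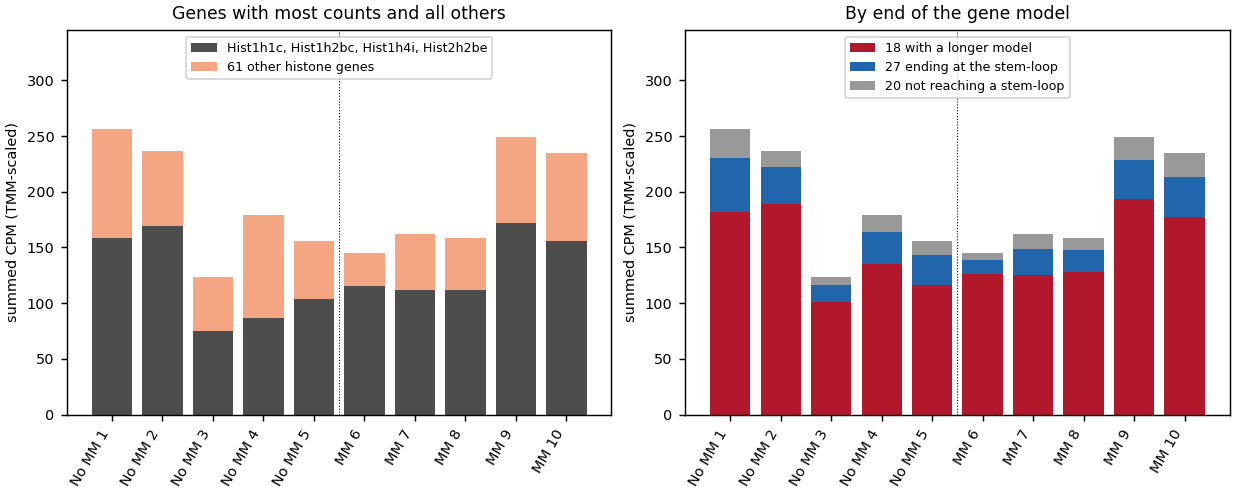
Summed CPM of the 65 histone genes in each library, split on the left into the 4 genes with most counts and the 61 others and on the right by where the gene model ends; the dotted line separates the 5 No MM from the 5 MM libraries. No MM 1, No MM 2, MM 9 and MM 10 had sums of 234 to 257 CPM and the other 6 libraries 123 to 179 CPM.

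Per length, Hist1h1c stood at 41.9 CPM per kb of gene model (mean of 10 libraries), Hist1h2bc at 41.5 CPM per kb and Hist1h4i at 21.8 CPM per kb. Next came the H2B genes Hist3h2ba at 8.77 and Hist2h2be at 5.43 CPM per kb. All 5 are in the group of 18 genes with longer models. Hist1h2bc, at 736 bases, is in it because its model is spliced, and Hist2h2be because of its length. No stem-loop was found for either. The highest level per length among the 27 genes that end at the stem-loop was 5.22 CPM per kb, for Hist1h1d, and among the 20 that do not reach it 4.58 CPM per kb, for Hist1h1b. The median of the 18 genes was 0.841 CPM per kb, against 1.5 CPM per kb for the genes ending at the stem-loop. Division by a longer model lowers the value wherever few reads fall past the stem-loop. These medians therefore cannot tell whether a longer model goes with a high level. Longer models held 71.0 to 86.8% of the histone counts of a library.

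Over the 53 genes tested, the median level was 1.58 CPM per kb, against 6.60 CPM per kb over all 16186 genes tested. For comparison, H2afz, a variant histone gene expressed outside S phase as well, stood at 280 CPM per kb, and Top2a, which encodes a topoisomerase of dividing cells, at 62.5 CPM per kb. Hist1h1a and Hist1h1b had no window shared with another gene, and their levels were 1.84 and 4.58 CPM per kb. The cause of the low level of the histone genes was not tested.

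In H1, H2B and H4 the range of the leading gene over the 10 libraries lay above that of the next gene, and in H2A and H3 these ranges overlapped. In H1, Hist1h1c was followed by Hist1h1d and Hist1h1b. The testis form Hist1h1t had at most 1 count in any library. In H2A, the highest levels were 3.54 CPM per kb for Hist1h2ak, 2.89 for Hist3h2a and 1.52 for Hist1h2af. The levels of these 3 genes overlapped between libraries. In H3, Hist1h3c led with 3.17 CPM per kb, before Hist1h3g with 1.58 and Hist1h3i with 1.42 CPM per kb. In H4, Hist1h4i was followed by Hist1h4h at 4.67 and Hist1h4d at 4.62 CPM per kb, which were indistinguishable given their ranges of 2.53 to 7.81 and 1.73 to 7.08 CPM per kb. The 11 H3 genes together held 239 ± 57.7 counts per library (SD, n = 10) and the 6 H1 genes 2721 ± 966 (SD, n = 10).

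**Figure D2:**
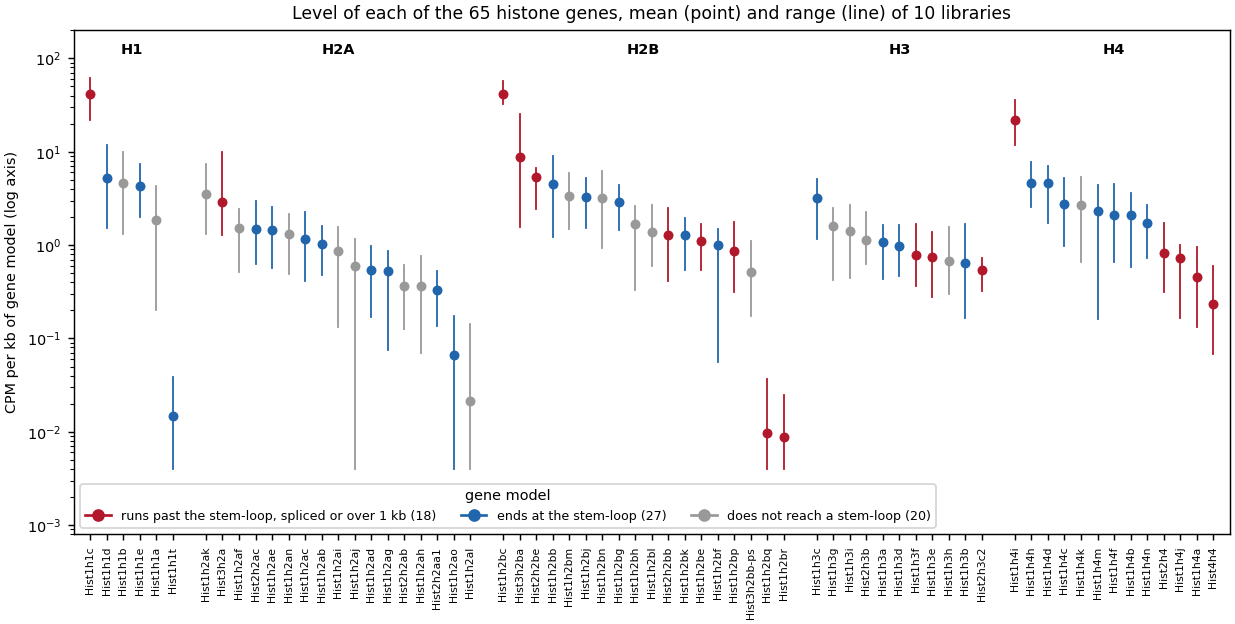
Level of each of the 65 histone genes in CPM per kb of gene model on a log axis, by class and colored by where the gene model ends; points are means and lines the range of 10 libraries, drawn to the lower end of 0.004 where a library held no count. Hist1h1c, Hist1h2bc and Hist1h4i have the highest means, at 21.8 to 41.9 CPM per kb. In No MM 4, Hist3h2ba reached 25.3 CPM per kb.

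In the H1 class, the make-up varied between libraries. Hist1h1c held 77.5 to 89.2% of H1 counts in the No MM libraries and 84.1 to 92.3% in the MM libraries. The group means, 83.2 ± 5.14% for No MM and 87.3 ± 3.16% for MM (SD, n = 5 each), did not differ past the threshold (exact permutation test, two-sided p = 0.183). With No MM 3 and No MM 4 left out, the No MM mean was 82.6 ± 4.9% (SD, n = 3; exact permutation test over 56 assignments, two-sided p = 0.196). The lowest share was found in No MM 1 and the highest in MM 6.

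The comparison of MM with No MM gave no histone gene past the threshold. With edgeR, 0 of the 53 genes had an unadjusted p under 0.05 in either direction, against 3.81% of all 16186 genes higher in MM and 10.3% lower in MM. No gene of the table passed at an adjusted p under 0.05 (0%). Among the histone genes, the smallest adjusted p by edgeR was 0.356, for Hist1h4f, whose unadjusted edgeR value was 0.051. With DESeq2, Hist3h2ba, Hist1h4f and Hist3h2a had an unadjusted p under 0.05, all 3 lower in MM, and 0 passed after adjustment. At the same threshold DESeq2 called 9.64% of 22438 genes lower and 4.31% higher. Without No MM 3 and No MM 4, edgeR called 1 histone gene of 56 lower, Hist1h4f, and 0 higher, against 3.37% and 2.51% of 16600 genes. The groups did not overlap for 0 histone genes in either direction, against 0.729% of all genes tested with every MM value higher and 0.68% with every MM value lower.

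On the log2 scale, the 53 fold changes (MM over No MM) ran from -1.30 for Hist3h2ba to 0.54 for Hist1h2af, with a median of -0.193. The median over all genes tested was -0.0272. Below 0 were 35 of the 53 genes, 66.0%, against 52.7% of all genes. Leaving out No MM 1 moved the median to 0.0798, and leaving out No MM 3 and No MM 4 moved it to -0.401, so this direction rested on which control libraries were included. The median was -0.23 for H1, -0.162 for H2A, -0.283 for H3 and -0.26 for H4 genes, and 0.136 for H2B genes. By gene model it was -0.215 for genes ending at the stem-loop, of which 20 of 24 were below 0, and 0.0272 for genes with a longer model, of which 7 of 15 were below 0. The class medians were all below 0 when No MM 3 and No MM 4 were left out, at -0.643 for H1, -0.307 for H2A, -0.183 for H2B, -0.389 for H3 and -0.546 for H4 genes. The gene model medians were then -0.465 for genes ending at the stem-loop, of which 22 of 24 were below 0, and -0.213 for genes with a longer model, of which 13 of 16 were below 0, against 51.6% of all genes. With No MM 3 and No MM 4 left out, No MM 1 was 1 of 3 control libraries. Among all libraries it was the highest for 29 of the 53 genes. The standard error of a single histone fold change had a median of 0.444, against 0.308 over all genes.

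**Figure D3:**
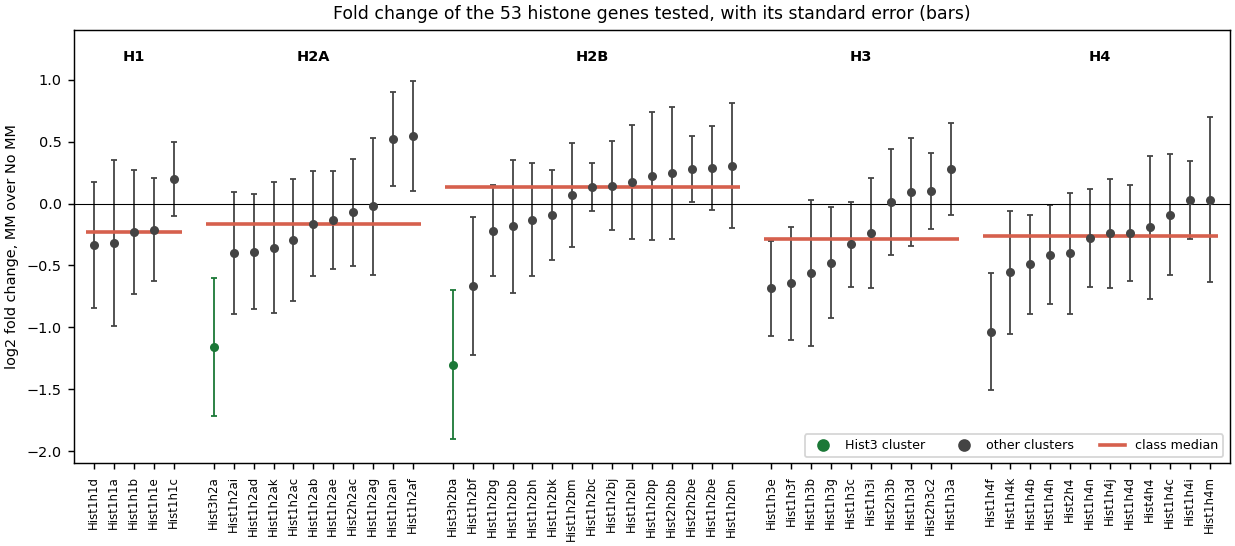
Log2 fold change, MM over No MM, of the 53 histone genes tested, by class. Bars are standard errors derived from the edgeR F statistic, the line is the class median, and Hist3 genes are in green. Fold changes run from -1.30 to 0.54, and 0 of the 53 genes had an unadjusted p under 0.05 by edgeR.

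The leading genes showed this in single libraries. Hist1h1c measured 84.1, 93.9, 34.3, 41.1 and 51.7 CPM in No MM 1 to 5 and 57.8, 57.9, 53.9, 96.3 and 83.4 CPM in MM 6 to 10. Of its MM values, 4 fell within the No MM range and MM 9 was just above it, and its log2 fold change was 0.20 ± 0.30 (SE; edgeR adjusted p = 0.786). Without No MM 3 and No MM 4, its lowest libraries, the change was -0.15.

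Hist1h2bc measured 30.3, 41.7, 24.1, 24.9 and 24.7 CPM in No MM and 35.2, 25.7, 27.8, 36.8 and 34.6 CPM in MM. It had the smallest standard error of the 53 genes, and the groups overlapped, with a log2 fold change of 0.14 ± 0.19 (SE; edgeR adjusted p = 0.768). Hist1h4i, a core H4 gene, measured 26.3, 16.8, 10.3, 11.3 and 13.7 CPM in No MM and 8.67, 14.2, 15.4, 21.5 and 20.1 CPM in MM. MM 6 was its lowest library and No MM 1 its highest, with a log2 fold change of 0.03 ± 0.31 (SE; edgeR adjusted p = 0.977).

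Hist2h2be, an H2B gene with no shared window, measured 17.4, 16.7, 6.37, 9.91 and 13.8 CPM in No MM. In MM it measured 14.2, 14.0, 14.9, 17.3 and 17.7 CPM. The MM libraries lay close together and the No MM libraries were spread by No MM 3 and No MM 4. The log2 fold change was 0.28 ± 0.27 (SE; edgeR adjusted p = 0.639) and -0.06 without those 2 libraries.

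Hist1h4f had the smallest p of all histone genes. It measured 1.75, 1.01, 0.42, 1.71 and 0.637 CPM in No MM and 0.259, 0.568, 0.378, 0.855 and 0.625 CPM in MM. These rest on 10 to 47 counts per library, and the groups overlapped. The log2 fold change was -1.03 ± 0.47 (SE; exact permutation p = 0.0952). The other members with the smallest p were Hist1h3e at -0.68 and Hist1h3f at -0.65 (log2 fold change) on the lower side, with exact permutation p of 0.135 and 0.317. On the higher side they were Hist1h2af at 0.54, Hist1h2an at 0.52, Hist2h2be at 0.28, Hist1h2be at 0.29 and Hist1h3a at 0.28, with exact permutation p of 0.151 or more.

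**Figure D4:**
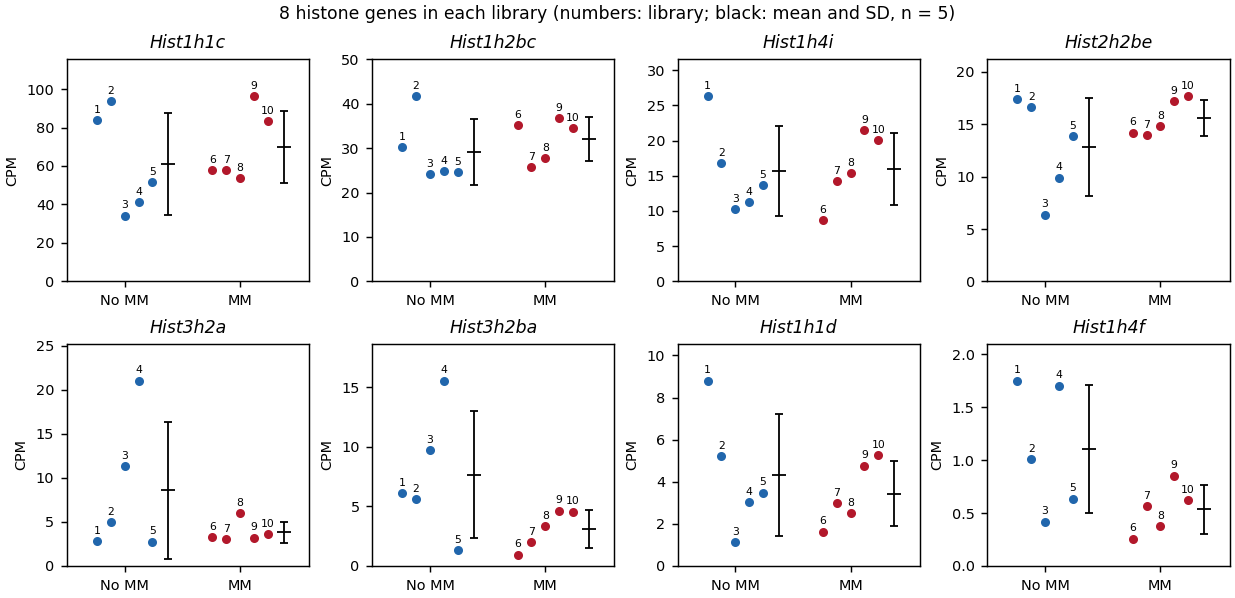
CPM of 8 histone genes in each library, numbered as in the labels, with the mean and SD of each group in black (n = 5 per group). Hist3h2a and Hist3h2ba are highest in No MM 4 (21.1 and 15.5 CPM) and second highest in No MM 3 (11.3 and 9.69 CPM), libraries in which Hist1h1c and Hist2h2be are lowest.

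Hist3h2a and Hist3h2ba were among 5 members of the 53 tested that were highest in No MM 4, with Hist1h3b, Hist1h3f and Hist1h4k, and No MM 4 was the highest library for 21.4% of all genes tested. Hist3h2a, which encodes an H2A protein, measured 2.86, 4.96, 11.3, 21.1 and 2.77 CPM in No MM and 3.31, 3.05, 5.98, 3.23 and 3.59 CPM in MM. Hist3h2ba, an H2B gene of the same cluster, measured 6.13, 5.63, 9.69, 15.5 and 1.35 CPM in No MM and 0.957, 2.03, 3.36, 4.63 and 4.55 CPM in MM. Both were highest in No MM 4 and next in No MM 3, the libraries with 29.3% and 26.8% of immunoglobulin counts. The log2 fold changes were -1.16 ± 0.56 (SE; edgeR adjusted p = 0.375) and -1.30 ± 0.60 (SE; edgeR adjusted p = 0.358). Without those libraries they were 0.10 and -0.52.

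As a share of histone counts, the 3 Hist3 genes held 17.2% in No MM 3 and 20.7% in No MM 4, against 2.72 to 6.04% in the other 8 libraries. The Wilson intervals of these 2 shares were 16.1 to 18.5% and 19.6 to 21.9%. Hist3h2a lies on the same strand as Trim17 and overlaps it. Trim17 had 1.67 CPM in No MM 4 and at most 0.276 CPM in the other libraries. How reads in the overlap were counted is not known, and the part of Trim17 in the Hist3h2a level was not tested. The third member, the pseudogene Hist3h2bb-ps, had 3 to 15 counts per library and was not tested. The part of plasma cells in the Hist3 level was not tested.

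Most other members had their highest and lowest values in a few shared libraries of both groups. No MM 1 was the highest library for 29 of the 53 genes, 54.7%, against 19.8% of all genes tested. MM 6 was the lowest for 27 genes, 50.9%, and No MM 3 for 22 genes, 41.5%, against 13.5% and 15.3% of all genes. One of No MM 1, MM 9 and MM 10 was the highest library for 46 of the 53 genes. No MM 1 and MM 6 were compared because they stood out in these same genes, so their difference follows in part from that choice. In No MM 1, 49 of 53 histone genes were higher than in MM 6, with a median ratio of 3.83. Over all genes 47.2% were higher, with a median ratio of 0.961. The genes of 1 pair of libraries are not replicates. Within groups, the median SD of log2 CPM for histone genes was 0.635 among No MM and 0.683 among MM libraries, and for all genes 0.556 and 0.314.

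The genes whose model ends at the stem-loop are given as a sum. It was 47.7, 33.1, 14.8, 28.4 and 26.7 CPM in No MM 1 to 5 and 13.1, 23.4, 20.2, 35.1 and 35.8 CPM in MM 6 to 10. No MM 1, MM 10, MM 9 and No MM 2 were the highest 4 libraries. The same 4 libraries had the highest sums of erythroid markers, at 24360 to 64490 CPM, against 1144 to 15830 CPM in the other 6. The match was not complete over other sums, since No MM 4 ranked second for the 61 histone genes outside the leading 4, with 92.1 CPM, and had 3811 CPM of erythroid markers, the ninth of 10. The part of erythroid cells in the histone level was not tested. In bulk samples such as these, fewer cells of a type and less RNA per cell cannot be told apart.

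The S phase list held 40 genes of DNA replication. Its sum was highest in No MM 1 and lowest in MM 6, at 6123 and 1608 CPM. The same held for the 28 G2/M genes, at 5036 and 1581 CPM. Other libraries differed in order. No MM 4 ranked 2 for the 61 histone genes outside the leading 4, but 8 for S phase and 9 for G2/M genes. MM 8 ranked 9 for those 61 genes and 4 for both lists. The sum of all histone genes was lowest in No MM 3. Of the 40 S phase and 28 G2/M genes, 0 had an unadjusted p under 0.05 with edgeR, against 3.81% of all genes higher and 10.3% lower. A fold change below 0 was found for 31 and 18 of them, against 52.7% of all genes. The replication genes Mcm2, Mcm5 and Pcna had log2 fold changes of -0.30, -0.17 and -0.18, Rrm2, a subunit of ribonucleotide reductase, 0.00, and the proliferation markers Mki67 and Top2a 0.15 and 0.06.

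Histone mRNA supply was described by 26 tested genes for transcription, 3′ end processing and decay. With edgeR, 2 of them were higher at an unadjusted p under 0.05, the decay helicase gene Upf1 (log2 fold change 0.34) and the uridylyltransferase gene Zcchc6 (0.48), and 1 was lower, Sympk (-0.63), a scaffold of the cleavage complex, against 3.81% of all genes higher and 10.3% lower. These 3 were named after their values were seen, and none passed after adjustment. Slbp measured 139, 119, 43.7, 55.4 and 81.1 CPM in No MM and 54.6, 98.9, 111, 111 and 115 CPM in MM. It was lowest in No MM 3 and highest in No MM 1, with a log2 fold change of 0.17 ± 0.33 (SE; edgeR adjusted p = 0.838). Npat and Casp8ap2, which act in histone gene transcription, had log2 fold changes of 0.02 and 0.08. For Lsm10 and Lsm11, parts of the U7 particle that cleaves histone pre-mRNA, they were -0.37 and -0.17, and for the exonuclease gene Eri1 0.32.

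Among 25 tested chaperones and histone carriers, 0 were higher and 2 were lower at an unadjusted p under 0.05, Rbbp7 (-0.39) and Ipo4 (-1.08), against 10.3% of all genes lower. Both were named after their values were seen. Ipo4, an importin, measured 122 and 83.3 CPM in No MM 3 and No MM 4 and 24.5 to 38.2 CPM elsewhere. Asf1b, Chaf1a, Chaf1b and Nasp, which carry or deposit new histones, had log2 fold changes of -0.08, -0.17, -0.13 and 0.06. Among 11 tested variant histone genes, 1 was lower, against the same 10.3% of all genes. This was H1f0, the replacement linker histone, at 166, 109, 164, 187 and 130 CPM in No MM and 127, 94.1, 58.5, 89.8 and 127 CPM in MM. The groups overlapped, with a log2 fold change of -0.61 ± 0.24 (SE; edgeR adjusted p = 0.315). H2afx and H2afz changed by -0.31 and -0.16 and H3f3a and H3f3b by 0.07 and 0.16 on the log2 scale, with adjusted p of 0.699 or more by edgeR. Without No MM 3 and No MM 4, 1 gene of the supply, chaperone, variant, S phase and G2/M lists was higher at an unadjusted p under 0.05 and 0 were lower, against 2.51% and 3.37% of all genes.

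Promoter sequences of RefSeq (GRCm38.p6, 250 bases before to 50 after the start) matched 57 of the 65 genes by symbol or synonym. For Hist2h2aa1 the match, at chr3:96245247-96245546 on the plus strand, does not adjoin the deposited gene at chr3:96239749-96240276 on the minus strand. It is still included in the H2A counts. CCAAT was found on either strand in 48 of the 57, in all 45 promoters of H1, H2A, H2B and H3 genes and in 3 of 12 H4 promoters, against 37.9% of 27025 promoters of all genes. The octamer ATTTGCAT was found in 6 of 15 H2A and 5 of 15 H2B promoters and in 0 promoters of the other classes, against 1.75% of all promoters. Promoters of neighboring H2A and H2B genes can overlap, so 1 site can count for both classes. This was so for the octamer of Hist1h2ae and Hist1h2bg and that of Hist1h2ah and Hist1h2bk. TATAAA was found in 57.9% of the histone promoters and in 14.2% of all. None of the 3 motifs contains another on either strand, and a match describes the sequence only.

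Bases before the start are shown for 3 promoters, with matches to the 3 motifs in capitals. The first, read from Hist1h2ac, lies between it and Hist1h2bc, and is shown because the level of the latter stood apart and no promoter of its own was matched. The other promoters belong to Hist1h4i, which led the H4 genes, and Hist3h2ba, highest in No MM 4. The first lies at chr13:23683960-23684209 on the minus strand, the second before Hist1h4i at chr13:22041363-22041612 on the minus strand, and the third before Hist3h2ba at chr11:58948661-58948910 on the plus strand.

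Hist1h2ac: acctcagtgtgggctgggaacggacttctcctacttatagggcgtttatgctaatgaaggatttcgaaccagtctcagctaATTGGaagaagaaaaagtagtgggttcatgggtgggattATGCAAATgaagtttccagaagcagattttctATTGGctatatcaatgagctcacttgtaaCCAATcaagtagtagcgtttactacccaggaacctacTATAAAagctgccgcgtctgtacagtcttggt
Hist1h4i: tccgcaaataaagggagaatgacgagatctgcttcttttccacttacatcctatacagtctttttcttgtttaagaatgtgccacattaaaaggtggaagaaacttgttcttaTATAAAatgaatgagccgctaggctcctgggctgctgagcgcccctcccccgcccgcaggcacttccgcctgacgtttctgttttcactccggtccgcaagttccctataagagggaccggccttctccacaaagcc
Hist3h2ba: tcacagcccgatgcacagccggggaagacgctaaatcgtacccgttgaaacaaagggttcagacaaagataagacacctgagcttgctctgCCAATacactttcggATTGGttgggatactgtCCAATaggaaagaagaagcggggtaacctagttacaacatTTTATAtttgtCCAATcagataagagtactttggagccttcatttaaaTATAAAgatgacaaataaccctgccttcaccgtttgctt

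Such shared promoter regions are common among these genes. Within 1000 bases of each other and transcribed apart lay 12 pairs, each of 1 H2A and 1 H2B gene, with 172 to 301 bases between the models. Levels within a pair could differ widely. Hist1h2ac stood at 1.17 CPM per kb and its neighbor Hist1h2bc, 274 bases away, at 41.5 CPM per kb. Hist2h2ac and Hist2h2be stood at 1.5 and 5.43 CPM per kb, whereas Hist1h2ak and Hist1h2bn were close, at 3.54 and 3.16 CPM per kb. In these 2 unequal pairs the gene with the longer model was the higher one. Hist1h2bp, which has a longer model, stood at 0.866 CPM per kb and its neighbor Hist1h2an at 1.32 CPM per kb, with overlapping ranges over the libraries. Hist1h2bq and Hist1h2ao had at most 3 counts in any library, so no order is given for that pair. In another pair, Hist1h2ag at 0.533 and Hist1h2bj at 3.24 CPM per kb, both models end at the stem-loop.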

How the data were processed

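Osteocyte RNA-seq libraries of 5 control and 5 myeloma-bearing mice were used. The members and gene lists were chosen with earlier results of these data known. Raw read counts for each gene, which the authors deposited unnormalized, were the only values analyzed. Left out were a normalized signal deposited by the authors, in which counts had been scaled by library, and deposited FPKM values. Log2 fold changes and p-values of the authors' own comparison were likewise deposited and left out. The submitters' processing notes name FastQC 0.11.5 and STAR; the counting program, its use of strand, the build and the annotation are not given in the sources used here.

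Counts were filtered with filterByExpr of edgeR 4.0.16 (R 4.3.3), which kept 16186 genes, and were scaled by TMM. The quasi-likelihood test (glmQLFit, glmQLFTest) had no covariates. It gives no standard error, so this was derived as the absolute log2 fold change divided by the square root of the F statistic. Benjamini-Hochberg adjustment covered every gene tested, at a threshold of 0.05. Exact permutation tests were two-sided over 252 assignments. Their smallest possible p is 0.00794. Replicates are separate mice. CPM per kb divides CPM by the deposited gene length. Scripts were tested on simulated data. Shares carry Wilson intervals at 95%, which cover counting error only. A count of 3 was taken as the detection limit, which is 0.0709 to 0.114 CPM. Alternatives were DESeq2 1.42.0, RLE and upper quartile size factors, no filter, at least 10 counts in every library, sva 3.50.0, immunoglobulin genes left out, and libraries left out.

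Named genes were the 3 highest per length in each class, the 5 with the smallest p in each direction, 21 pathway genes, Sost and Dmp1, and the leading gene of other marker lists. The other marker lists had summed levels that overlapped between groups. At an unadjusted p under 0.05, 3.81% of all genes tested were higher and 10.3% lower. The lists held 2 higher and 1 lower of 16 B lineage genes, 1 higher of 11 monocyte and 1 higher of 12 T and NK genes. They held 0 called of 11 early granulocyte, 10 muscle and 10 osteoclast genes. Their leading genes were Cd79b, Ngp, Ly6c2, Nkg7, Acta1 and Acp5, for B lineage, early granulocyte, monocyte, T and NK, muscle and osteoclast markers.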

Additional observations from a re-analysis of the deposited data

Results flagged for a closer look

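In 96 sets of 5 values (summed levels, shares and named genes, by group), Dixon's test for a single distant library was met 6 times, and chance gives about 1 in 20. In MM 6, H4 genes held 9.998% of histone counts, against 14.5 to 15.1% in the other MM libraries, and Hist1h2af measured 0.207 CPM, against 0.799 to 0.963 CPM. In MM 8, the Hist1 cluster held 81.7% of histone counts against 84.9 to 86.1%, the Hist3 cluster held 6.04% against 3.04 to 3.63%, and Hist3h2a measured 5.98 CPM against 3.05 to 3.59 CPM. In No MM 1, Hist1h3c measured 2.48 CPM, against 1.42 to 1.72 CPM in the other No MM libraries.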

How the results depend on the processing

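No histone gene passed an adjusted p under 0.05 in the main fit or under any of the 19 alternatives. At an unadjusted p under 0.05, histone genes lower in MM numbered 3 with DESeq2 and 1 without a filter, against 9.64% and 8.83% of all genes. They numbered 1 with at least 10 counts in every library and 1 without No MM 3 and No MM 4, against 10.2% and 3.37%. With each library left out in turn, 0 to 3 were lower and 0 to 1 higher, against 5.73 to 14.5% and 1.78 to 7.8% of all genes. The 3 without No MM 5 were Hist3h2ba, Hist1h4f and Hist3h2a, where 14.5% of all genes were lower, and the 1 that was higher was Hist1h2aj without MM 6. The median log2 fold change ran from -0.381 to 0.0798 over single libraries left out, the highest without No MM 1, and was -0.343 with 1 surrogate variable. The unscaled ratio of histone shares ran from 1.13 to 1.39 over single libraries left out. In the 5 pathway lists, 2 genes were higher and 4 lower in the main fit, against 3.81% and 10.3% of all genes. With 1 surrogate variable these were 1 and 0, against 4.28% and 5.29%. Without No MM 3 and No MM 4 they were also 1 and 0, against 2.51% and 3.37%. Without No MM 1, No MM 3 and No MM 4, a setting chosen after seeing the data, they were 0 and 0, against 0.961% and 0.519%. Over single libraries left out they ran from 0 to 7, the highest without MM 6, where 5.21% of all genes were higher, and from 1 to 8, the highest without No MM 5, where 14.5% of all genes were lower.

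Of 393 fold changes of named histone genes under the alternatives, 372 kept their direction and 21 changed it. Without No MM 3 and No MM 4 the log2 fold change became -0.15 for Hist1h1c, 0.10 for Hist3h2a, -0.028 for Hist1h2bc, -0.055 for Hist2h2be and -0.27 for Hist1h4i. Without No MM 1 as well it became -0.074 for Hist1h1c, 0.0032 for Hist1h2ak, -0.064 for Hist1h2bc, 0.089 for Hist1h3i, -0.10 for Hist1h2be and 0.15 for Hist1h3f. With 1 surrogate variable it became -0.058 for Hist1h1c and -0.19 for Hist1h4i. Over single libraries left out, it ran from -0.58 to 0.094 for Hist1h1d, from -0.44 to 0.19 for Hist1h1b, from -0.42 to 0.052 for Hist1h3i and from -0.10 to 0.30 for Hist1h4i. The cause of these changes was not tested. No paired analysis was possible because no number of the labels occurs in both groups. The study names a paired analysis, but its pairs are not given in the labels. Depth limits most members, since 52 of 65 stayed under 100 counts in every library.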
